A study of Ovis aries with 27 samples.

Results

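Lipoprotein lipase (LPL), leptin (LEP) and perilipin 1 (PLIN1) were followed in 27 sheep fetuses, in the septum of the heart, which is the muscle that separates the ventricles. They are 3 of the 963 named genes on a sheep Agilent array and were chosen by symbol, RefSeq accession or record description. The array carries 3 probes for LPL, 3 for LEP and 2 for PLIN1. All 8 probes were well above background on each of the 27 arrays and entered the tests, so no member was lost to the filter on dim probes.

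Each array held Cy3-labelled cRNA of 1 fetus, and the ewe had been infused with vehicle or with cortisol at 1 mg/kg/d. At 130 d of gestation there were 6 control and 6 cortisol fetuses, and at 140 d there were 8 control fetuses and 7 exposed to cortisol. The younger fetuses were collected at 129 to 131 d after about 10 d of infusion, and the older ones at 139 to 144 d, near term, after about 25 d. Age, cohort and length of infusion therefore change together in every comparison of 140 d with 130 d and cannot be told apart. One label starts the infusion near day 120 in the younger cohort, another near day 115 in all ewes. The 8 older controls came from 7 ewes, and which fetuses were twins is not given in the sources used here. No breed or genotype of the sheep is given there either. The agent reached the fetus through the mother, so the labels fix the dose to the ewe and not the level in the fetus.

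LPL is the enzyme that releases fatty acids from the triglycerides of circulating lipoproteins. In the heart it is made by cardiomyocytes and acts at the wall of the capillaries, and it is a main route by which heart muscle takes up fatty acids. The heart before birth runs largely on glucose and lactate, and its use of fatty acids increases after birth. PLIN1 coats the lipid droplet of fat cells and controls the access of lipases to the stored triglyceride. Leptin is a hormone of fat cells that reports fat stores to the brain, and its gene is also active in the placenta of some species.

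The probe sequences are shown because the probes of LEP gave different answers. The paired probes of LEP lie at positions 184 to 243 and 185 to 244 of a partial leptin coding record. They differ by a shift of 1 base, and capitals mark the 59 bases they share.
LEP A_70_P017126: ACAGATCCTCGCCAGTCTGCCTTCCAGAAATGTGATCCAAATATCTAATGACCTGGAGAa
LEP A_70_P017127: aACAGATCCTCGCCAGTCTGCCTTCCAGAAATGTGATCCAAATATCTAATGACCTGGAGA
The PLIN1 probes have the same layout, at positions 540 to 599 and 541 to 600 of the PLIN1 mRNA record, and also share 59 bases.
PLIN1 A_70_P014631: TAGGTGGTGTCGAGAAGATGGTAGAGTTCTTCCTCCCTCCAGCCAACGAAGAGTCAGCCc
PLIN1 A_70_P014632: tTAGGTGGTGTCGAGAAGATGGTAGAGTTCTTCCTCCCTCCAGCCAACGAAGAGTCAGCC
The pair of probes on the LPL mRNA record, at positions 1497 to 1556 and 1537 to 1596, overlap by the 20 bases in capitals.
LPL A_70_P029921: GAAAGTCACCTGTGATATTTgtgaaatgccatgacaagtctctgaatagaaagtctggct
LPL A_70_P029922: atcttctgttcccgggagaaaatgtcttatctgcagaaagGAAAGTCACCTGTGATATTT
A further probe of LPL (A_70_P016916) and one of LEP (A_70_P026616) come from records of the 3′ untranslated region. None of the 8 probes shared 25 bases in a row with a probe of another gene on the array.

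Levels below are log2 intensities relative to the 75th percentile of the same array, so 0 is the level of a fairly bright probe, and differences are on the same log2 scale. Levels of different probes are not compared. Arrays at 140 d were dimmer as a whole. The 75th percentile of intensity had a median of 1170 in controls and 1114 with cortisol at 130 d, against 832 and 910 at 140 d. Between 77.0% and 87.0% of spots per array were well above background, no spot was saturated, and arrays correlated pairwise at 0.933 to 0.99. The number of arrays limits the precision. Calls are limma's moderated test with Benjamini-Hochberg adjustment over 12778 probes, at an adjusted p under 0.05. Overlap of groups is described probe by probe, and the share of all tested probes without overlap was not computed.

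LPL rose between 130 d and 140 d of gestation, in control fetuses and in cortisol-exposed fetuses, on all 3 of its probes, where 19.1% of all 12778 tested probes were called in controls and 13.5% in the cortisol arm. The rise was 1.61-fold to 1.83-fold in controls and 1.73-fold to 1.83-fold in the cortisol arm. Cortisol itself gave no called difference in LPL at either age, nor in any other of the 12778 tested probes. In a bulk tissue, more cells that express a gene and more transcript per cell cannot be told apart.

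In controls at 130 d the probe in the 3′ untranslated region (A_70_P016916) ranged from 3.94 to 4.74 with a median of 4.22, and at 140 d from 4.27 to 4.90 (median) and 5.40 (highest). With cortisol the same probe ran from 3.91 through a median of 4.09 to 4.34 at 130 d, and from 4.21 through 4.91 to 5.52 at 140 d. The age groups overlapped in both arms through 1 low fetus at 140 d, and 7 of 8 older controls and 6 of 7 older cortisol fetuses lay above every fetus of the younger group. The difference was 0.69 ± 0.17 in controls (SE, adjusted p = 0.00646, limma) and 0.79 ± 0.17 in the cortisol arm (SE, adjusted p = 0.00372, limma).

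LPL probe A_70_P029921 measured 0.89 (lowest), 1.1 (median) and 2.13 (highest) in controls at 130 d, and 1.66, 2.12 and 2.74 in controls at 140 d. With cortisol it measured 1.01, 1.21 and 1.5 at 130 d, and 1.63, 2.04 and 2.75 at 140 d. The ages did not overlap in the cortisol arm, and in controls only fetus 2 at 130 d reached into the older range. The difference was 0.88 ± 0.19 in controls (SE, adjusted p = 0.0027, limma) and 0.81 ± 0.19 in the cortisol arm (SE, adjusted p = 0.00752, limma).

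LPL probe A_70_P029922 gave 1.2, 1.27 and 2.30 (lowest, median and highest) in controls at 130 d, and 1.80, 2.17 and 2.92 at 140 d. With cortisol it gave 1.00, 1.34 and 1.73 at 130 d, and 1.89, 2.16 and 2.82 at 140 d. Again the ages were separate in the cortisol arm and overlapped in controls through fetus 2 at 130 d. The differences were 0.77 ± 0.18 (SE, adjusted p = 0.00541, limma) and 0.87 ± 0.19 (SE, adjusted p = 0.00363, limma).

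**Figure D1:**
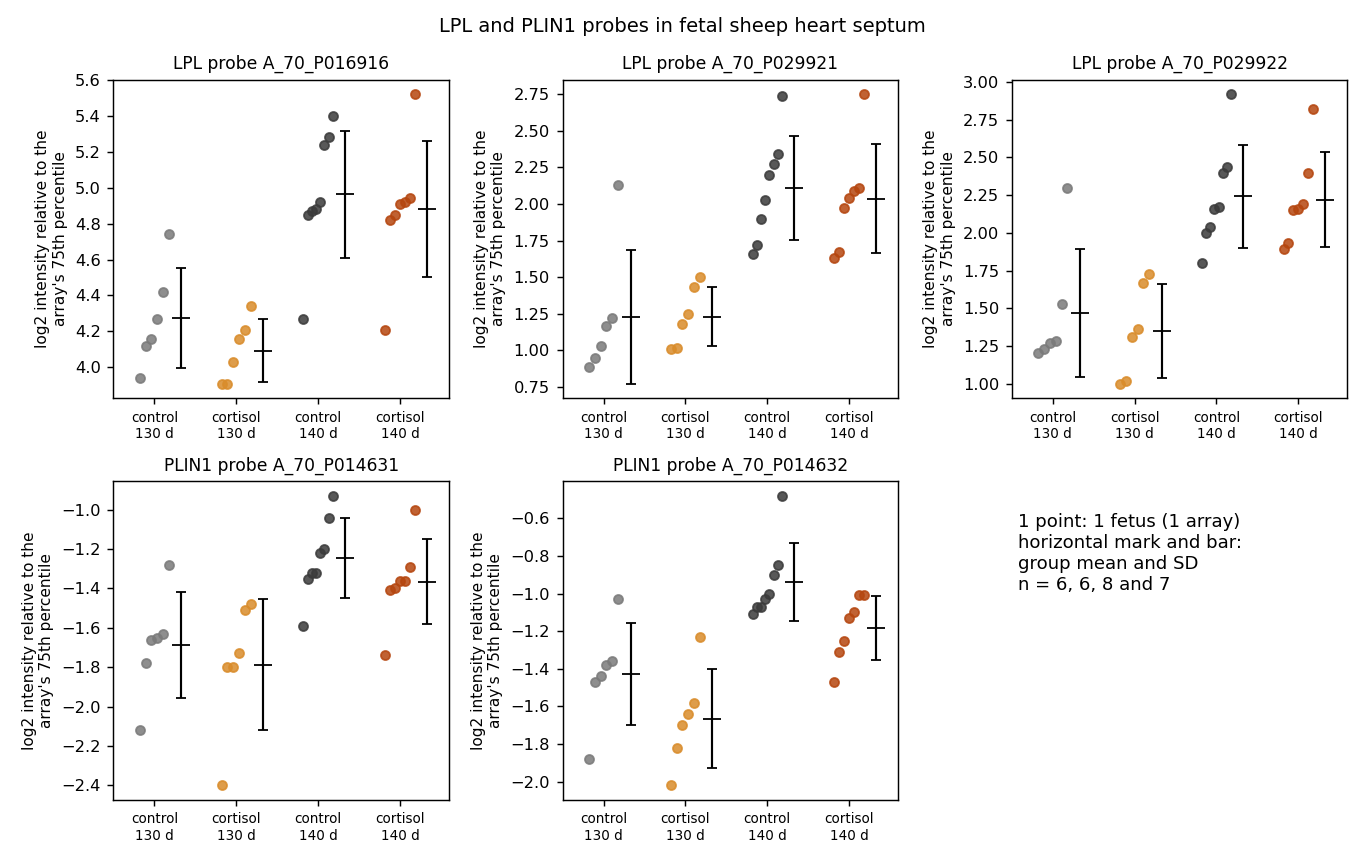
Log2 intensity relative to the array's 75th percentile (vertical axis) for the 3 LPL and 2 PLIN1 probes in the 4 groups (horizontal axis). Each point is 1 fetus, and marks with bars are the group mean and SD. For each probe both 140 d groups have higher means than both 130 d groups, and 1 control at 130 d stands at 2.13 and 2.30 on the LPL mRNA probes.

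Arrays sat on 5 slides, of which 3 held both ages, and slides 1 and 5 held older fetuses only. Within the 3 shared slides the LPL difference in controls was 0.50, 1.06 and 0.63 on the first probe, 0.66, 1.2 and 1.15 on the second, and 0.61, 1.15 and 0.78 on the third. The within-slide values of the cortisol arm were 1.26, 0.24 and 0.88, then 1.15, 0.18 and 1.1, then 1.17, 0.21 and 1.38. The sign was the same on each slide, and the difference in the cortisol arm was smallest on slide 3 for each probe. Each of these 3 slides holds 1 or 2 fetuses of a group, so no test was run within slides.

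The calls of LPL rest on scaling between arrays. With no scaling, an alternative chosen after the data were seen, the median probe was 0.47 lower at 140 d in controls, and LPL was higher by 0.22, 0.41 and 0.31 with no call (adjusted p = 0.365, 0.09 and 0.19, limma). In the cortisol arm the median probe was 0.37 lower, and of the LPL probes A_70_P029922 kept its call there. Unscaled intensities of the LPL mRNA probes ran from 1910 to 6420 and those of the 3′ untranslated probe from 11100 to 37600.

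PLIN1 also rose with age on both probes, 1.36-fold and 1.4-fold in controls and 1.34-fold and 1.4-fold in the cortisol arm. In controls probe A_70_P014631 measured -2.12, -1.65 and -1.28 (lowest, median and highest) at 130 d, and -1.59, -1.27 and -0.93 at 140 d. With cortisol it measured -2.40, -1.77 and -1.48 at 130 d, and -1.74, -1.36 and -1.0 at 140 d. The groups overlapped in both arms, with 8 of 8 older controls and 7 of 7 older cortisol fetuses above the mean of the younger group. The difference was 0.44 ± 0.14 in controls (SE, 1.36-fold, adjusted p = 0.0269, limma) and 0.42 ± 0.14 in the cortisol arm (SE, 1.34-fold, adjusted p = 0.0481, limma).

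The other PLIN1 probe, A_70_P014632, measured -1.88, -1.41 and -1.03 in controls at 130 d, and -1.11, -1.02 and -0.48 at 140 d. With cortisol it ran from -2.02 through -1.67 to -1.23 at 130 d, and from -1.47 through -1.13 to -1.01 at 140 d. Older fetuses again all lay above the younger mean, and the ranges overlapped. The difference was 0.48 ± 0.12 in controls (SE, 1.4-fold, adjusted p = 0.00875, limma) and 0.48 ± 0.13 in the cortisol arm (SE, 1.4-fold, adjusted p = 0.0136, limma).

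With normexp background correction the PLIN1 differences were 0.41 and 0.43 in controls and 0.30 and 0.34 in the cortisol arm, with none called (adjusted p between 0.166 and 0.537, limma), and with no scaling they were -0.03, 0.02, 0.10 and 0.16. Probe A_70_P014631 lost its call when any one of fetuses 3 and 5 of the 130 d controls and fetus 1 of the 140 d controls was left out, where it was 0.35, 0.42 and 0.40. In the cortisol arm it lost the call without any one of fetuses 1, 4, 5 and 6 at 130 d or 2, 3, 5, 6 and 7 at 140 d, with values between 0.30 and 0.43. Probe A_70_P014632 kept its call in each of these fits that left out 1 fetus. Within the 3 shared slides the differences were 0.40, 0.69 and 0.11 on the first PLIN1 probe and 0.45, 0.70 and 0.37 on the second in controls, and 0.48, 0.32 and 0.67 on the first and 0.57, 0.38 and 0.56 on the second in the cortisol arm.

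LEP gave no common answer across its probes. All 3 were dim, with intensities of 43.0 to 164 against 75th percentiles of 602 to 1273, though the scanner software called them well above background throughout. Probe A_70_P017126 measured -3.68, -3.40 and -3.02 (lowest, median and highest) in controls at 130 d, and -2.97, -2.87 and -2.70 at 140 d. The 2 control groups did not overlap, and the difference was 0.51 ± 0.11 (SE, 1.43-fold, adjusted p = 0.00182, limma). In this comparison 19.1% of all tested probes were called, and how many of them separated the groups was not counted.

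The sister probe A_70_P017127, which shares 59 of its 60 bases, gave no called difference. It measured -3.68, -3.26 and -3.01 in controls at 130 d, and -3.91, -3.33 and -2.97 at 140 d, with full overlap of the younger by the older group. The difference was -0.09 ± 0.17 (SE, 95% confidence interval -0.44 to 0.27, adjusted p = 0.769, limma). The 3′ untranslated probe A_70_P026616 measured -4.04, -3.94 and -3.57 at 130 d and -4.04, -3.72 and -3.54 at 140 d, a difference of 0.12 ± 0.13 (SE, interval -0.15 to 0.39, adjusted p = 0.546, limma).

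In the cortisol arm no LEP probe was called between the ages. Probe A_70_P017126 measured -3.25, -3.17 and -2.78 at 130 d and -3.45, -3.11 and -2.80 at 140 d, a difference of 0.04 ± 0.11 (SE, interval -0.19 to 0.26). Probe A_70_P017127 measured -3.54, -3.26 and -2.77 at 130 d and -3.80, -3.03 and -2.71 at 140 d, a difference of 0.07 ± 0.18 (SE, interval -0.30 to 0.44). Probe A_70_P026616 measured -4.30, -4.15 and -3.66 at 130 d and -4.25, -3.75 and -3.25 at 140 d, a difference of 0.29 ± 0.14 (SE, interval 0.01 to 0.57, adjusted p = 0.165, limma). With quantile normalization that last difference was 0.42 and passed (adjusted p = 0.0401, limma).

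The gap between the 2 sister probes of LEP on the same array is given as a description with no test, since their disagreement was known when it was computed. In controls A_70_P017126 minus A_70_P017127 was -0.10 ± 0.30 (SD, n = 6) at 130 d and 0.50 ± 0.30 (SD, n = 8) at 140 d, running from -0.48 to 0.19 and from 0.19 to 0.94. The mean gap was thus 0.60 higher at 140 d, and the ranges met at 0.19. In the cortisol arm the gap was 0.07 ± 0.22 (SD, n = 6) and 0.04 ± 0.36 (SD, n = 7), a change of -0.03, and the ranges overlapped.

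The size of that gap differed by slide. Within the 3 slides that held both ages the change in controls was 0.36, 0.18 and 0.70, and over the 5 older and 6 younger controls of these slides together it was 0.43. The 3 older controls on slide 5 had gaps of 0.58 to 0.94, and A_70_P017127 stood at -3.91, -3.79 and -3.51 on them. With slide as a block the age difference of A_70_P017127 in controls was 0.20 in place of -0.09. Of the other pairs, A_70_P017126 minus A_70_P026616 differed by 0.39 between the ages in controls. Pairs of LPL probes differed between the ages by -0.19 to 0.10 in controls, and the PLIN1 pair with the same 1-base shift by -0.04.

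The call on LEP therefore rested on 1 of its 3 probes. Averaged over its probes LEP differed by 0.18 in controls and was not called (adjusted p = 0.159, limma). With normexp background correction A_70_P017126 differed by 0.53 and was not called (adjusted p = 0.258, limma), and with no scaling by 0.05. Within the shared slides its difference in controls was 0.51, 0.40 and 0.82, and it kept its call in each fit that left out 1 fetus. With no scaling, the other LEP probes were both called lower, A_70_P017127 at -0.55 (adjusted p = 0.0154, limma) and A_70_P026616 at -0.34 (adjusted p = 0.0432, limma). Over all tested probes the median difference in controls was then -0.47, with 7260 probes called and 1.12% of those higher. These LEP calls therefore cannot be told apart from the lower intensity of the whole arrays at 140 d.

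**Figure D2:**
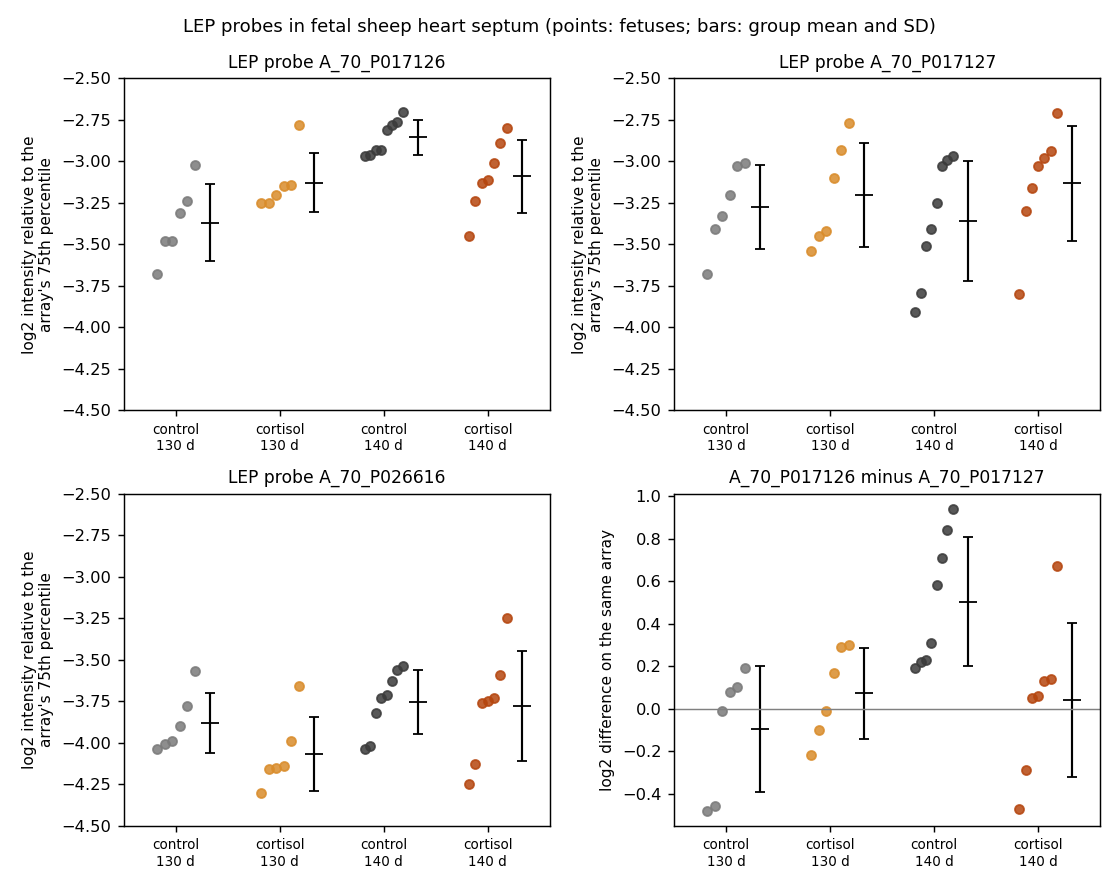
Log2 intensity relative to the array's 75th percentile for the 3 LEP probes, and the log2 difference between the sister probes on the same array (lower right), by group. Points are fetuses and marks with bars are the group mean and SD. The 8 older controls lie above the 6 younger ones on A_70_P017126 and spread from -3.91 to -2.97 on A_70_P017127.

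Over the 8 member probes, 6 were called higher and 0 lower between the ages in controls, and 5 were called higher and 0 lower in the cortisol arm. Over all tested probes 9.77% were called higher and 9.35% lower in controls, and 4.94% higher and 8.52% lower in the cortisol arm. This split depends on the scaling. Of the called probes 51.1% were higher in controls and 36.7% in the cortisol arm, against 70.6% and 63.7% with arrays centred on their median, and 1.12% and 2.8% with no scaling. The members were chosen with results of these arrays known, and probes of 1 gene are not independent, so these shares are set side by side as a description. The median difference was 0.50 over the 8 member probes in controls and 0.45 in the cortisol arm, against -0.01 and -0.04 over all tested probes.

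Maternal cortisol gave no called difference in any of the 8 probes at either age, where 0 of all 12778 tested probes were called. At 130 d the 3 LPL probes differed from controls by -0.18 ± 0.18, 0.00 ± 0.20 and -0.12 ± 0.20 (SE), with 95% confidence intervals that together ran from -0.55 to 0.42. At 140 d they differed by -0.08 ± 0.16, -0.07 ± 0.18 and -0.02 ± 0.18 (SE), with intervals from -0.44 to 0.34. The groups overlapped on each LPL probe at both ages.

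PLIN1 lay lower with cortisol on both probes at both ages, without a call. The differences were -0.10 ± 0.15 and -0.24 ± 0.13 (SE) at 130 d and -0.12 ± 0.13 and -0.24 ± 0.12 (SE) at 140 d. On A_70_P014632 the interval at 140 d was -0.49 to 0.00 (unadjusted p = 0.051, adjusted p = 0.808, limma), and 7 of 7 cortisol fetuses lay below the control mean. The sign of the PLIN1 difference at 130 d changed on A_70_P014631 with normexp background correction, where it was 0.05.

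LEP probe A_70_P017126 was 0.24 ± 0.11 higher with cortisol at 130 d (SE, interval 0.01 to 0.47, unadjusted p = 0.0421, adjusted p = 1, limma) and 0.23 lower at 140 d (-0.23 ± 0.10, SE, interval -0.44 to -0.03, unadjusted p = 0.0278, adjusted p = 0.808, limma). Neither passed. The sister probe differed by 0.07 ± 0.19 and 0.23 ± 0.17 (SE), and the 3′ untranslated probe by -0.19 ± 0.14 and -0.02 ± 0.13 (SE). At 140 d the sister probes thus had opposite signs.

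The test of whether the cortisol difference itself changed with age called none of the 8 probes. On LEP probe A_70_P017126 that change was -0.48 ± 0.15 (SE, interval -0.79 to -0.16, unadjusted p = 0.00412, adjusted p = 0.421, limma), and between -0.07 and 0.16 on the other 7. Over all 12778 probes limma called 0% for cortisol at 130 d, 0% at 140 d and 0% for its change with age (0 probes each), with 455, 727 and 743 probes at an unadjusted p under 0.05.

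**Figure D3:**
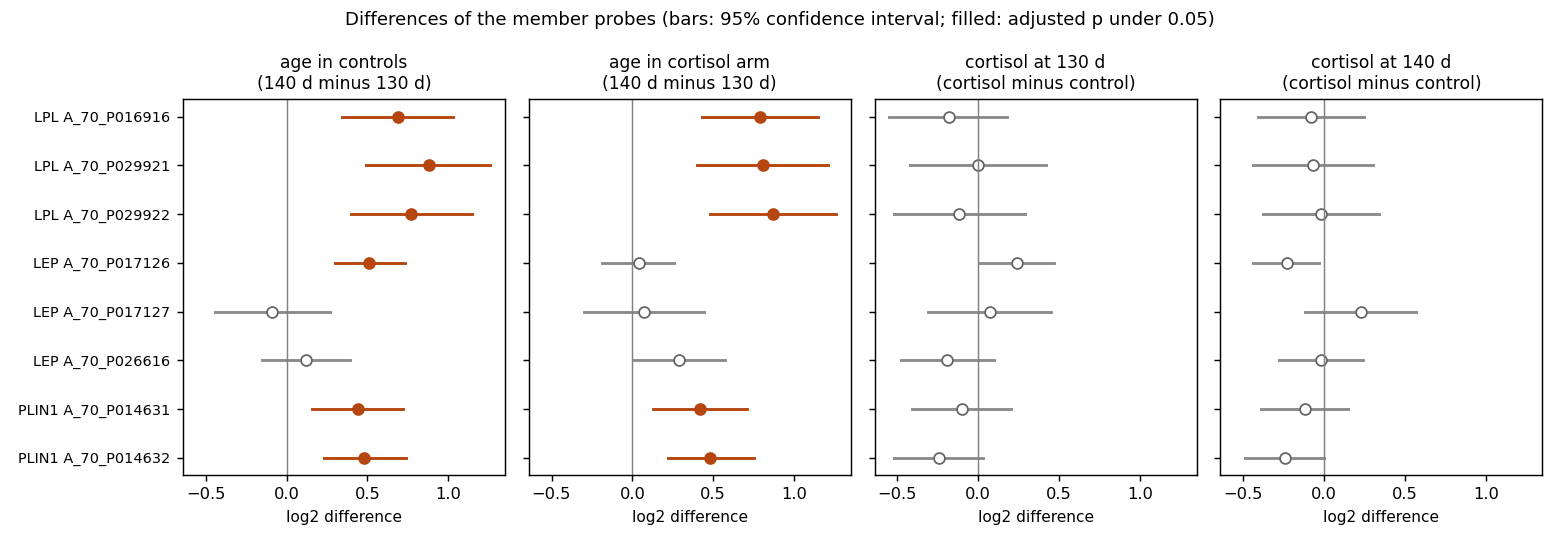
Log2 differences of the 8 member probes (rows) in the 4 comparisons between groups (panels), with 95% confidence intervals. Filled points have an adjusted p under 0.05 (limma), as 6 do for age in controls, 5 for age in the cortisol arm and 0 for cortisol at either age.

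By group mean, both 140 d groups ranked above both 130 d groups on every LPL and PLIN1 probe. The highest mean of LPL was in controls at 140 d on each probe, and it differed from cortisol at 140 d by less than the SD of either group. The lower 2 groups of LPL differed by less than their SD on A_70_P029921 and A_70_P029922. The order of PLIN1 was control at 140 d, cortisol at 140 d, control at 130 d and cortisol at 130 d on both probes, and the neighbours in that order were not called apart within an age. LEP had control at 140 d highest on A_70_P017126 and lowest on A_70_P017127.

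Across fetuses, after removing group means, probes of LPL moved together (Pearson r 0.82 to 0.96, Spearman rho 0.77 to 0.93 over 27 arrays, adjusted permutation p = 9.33e-05 for r and at most 0.00049 for rho) and so did the probes of PLIN1 (r = 0.82, rho = 0.75, adjusted permutation p = 0.00021 and 0.00014). The sister probes of LEP were looser (r = 0.41, rho = 0.50, permutation p = 0.0365 and 0.0102, adjusted over 28 probe pairs 0.114 and 0.0572). The 3′ untranslated LEP probe gave r = -0.08 and -0.17 with the sister probes. With slide means removed as well, r was 0.84 to 0.96 for LPL, 0.77 for PLIN1 and 0.59 for the LEP sisters, and without the 2 fetuses farthest from the median it was 0.78 to 0.94, 0.74 and 0.29. The values of 1 array share its scaling, and probes of 1 gene target the same transcript, some with shared bases. A p-value against no correlation therefore decides little for these pairs.

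Between genes, LPL probe A_70_P029922 correlated with both PLIN1 probes (r = 0.60 and 0.60, permutation p = 0.00263 and 0.00347, adjusted 0.0147 and 0.0162). The rank correlations were 0.39 and 0.33 and did not pass (adjusted permutation p = 0.253 and 0.351). Without the 2 fetuses farthest from the LPL median r was 0.45 and 0.37, and with slide means removed 0.54 and 0.56. The overlapping LPL probe A_70_P029921 gave r = 0.48 and 0.48 with PLIN1, neither past adjustment (adjusted permutation p = 0.062 and 0.0687). For the 3′ untranslated LPL probe r with PLIN1 was 0.31 and 0.35, neither past adjustment. The PLIN1 probes share nearly all their bases, so their values are not independent.

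Among 801 other named genes, those whose log2 values over the 27 arrays, after subtracting group means, were most like LPL were SLC2A4 (r = 0.84), the insulin-responsive glucose transporter GLUT4, ATP5PO (r = 0.82), a subunit of mitochondrial ATP synthase, and FGF1 (r = 0.78), a fibroblast growth factor. For PLIN1 they were SLC5A8 (r = 0.82), a sodium-coupled monocarboxylate transporter, FXYD6 (r = 0.77), a regulator of the sodium pump, and AANAT (r = 0.75), an enzyme of melatonin synthesis. The 3 LEP probes shared none of their likest genes. They were BARX2, EP4C and TGFBR2 for A_70_P017126 (r = 0.78, 0.74 and 0.72), HCRTR2, PAG11 and CYP4F21 for A_70_P017127 (r = 0.89, 0.86 and 0.86), and CXCL8, MYOD1 and TXNIP for A_70_P026616 (r = 0.69, 0.69 and 0.65). These values are descriptive and carry no test.

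Few partners of these genes were on the array under a usable name. Of 21 genes of lipoprotein lipase action and lipid uptake, 3 are described here. FABP5, an intracellular carrier of fatty acids, rose in the cortisol arm by 1.39 ± 0.40 (SE, adjusted p = 0.023, limma) and differed by 0.47 ± 0.39 in controls. The FABP5 call was lost without fetus 6 of the older cortisol group (1.17, adjusted p = 0.0552), with normexp and in a fit of those 2 groups alone. CAV1, the coat protein of caveolae, differed by -0.11 and 0.15 with no call. FABP4, another carrier of fatty acids, differed by 0.22 ± 0.99 and -0.29 ± 1.02 (SE) with no call.

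Of 21 genes of lipid droplets, triglyceride synthesis and lipolysis, 4 were tested, with 1 called higher in controls and 2 in the cortisol arm. Over all tested probes 9.77% were called higher in controls and 4.94% in the cortisol arm. PLIN5, the perilipin of oxidative tissues such as heart, rose by 0.98 ± 0.27 in controls (SE, adjusted p = 0.0125, limma) and by 1.08 ± 0.28 with cortisol (SE, adjusted p = 0.0107, limma). It ranged from -3.53 through -3.26 to -2.02 in younger controls and from -2.58 through -2.14 to -1.42 in older ones, and its other probe differed by 1.01 and 1.08. The PLIN5 calls were lost with normexp (0.83 and 0.68) and with no scaling (0.52 and 0.76). DGAT1, which makes the last step of triglyceride synthesis, rose in the cortisol arm by 0.36 ± 0.12 (SE, adjusted p = 0.0419, limma), and its difference of 0.30 in controls missed (adjusted p = 0.0683, limma). The other DGAT1 probe was called in both arms, with differences of 0.47 in controls and 0.38 in the cortisol arm. The call of the first DGAT1 probe in the cortisol arm was lost in 9 of 13 fits that left out 1 fetus and under 6 other settings, and in controls this probe was called under 4 settings, with differences of 0.30 to 0.39. PLIN2, the perilipin found in most tissues, lay lower at -0.33 ± 0.16 and -0.22 ± 0.16 with no call. The median difference of the list was 0.35 in controls and 0.38 in the cortisol arm. PLIN3 had a probe that was well above background on 0 arrays and was not tested.

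Of 17 genes of the leptin receptor, its signalling and other adipokines, 4 were tested and none was called in any comparison. The shares called between the ages over all tested probes were 19.1% in controls and 13.5% in the cortisol arm. The leptin receptor LEPR differed by 0.32 ± 0.64 and -0.51 ± 0.66 (SE) and was well above background on 21 of 27 arrays. NAMPT, an enzyme of NAD synthesis also released by fat, differed by 0.24 ± 0.16 and 0.26 ± 0.16 (SE). POMC, the precursor of melanocortins, differed by -0.35 ± 0.34 and -0.85 ± 0.35 (SE, adjusted p = 0.103 in the cortisol arm, limma). The list's median was 0.15 in controls and -0.13 in the cortisol arm.

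Of 25 genes of adipogenic regulation and fatty acid synthesis, 10 were tested, with 2 called higher in controls, and 2 higher and 1 lower in the cortisol arm. All tested probes together gave 9.77% called higher in controls, and 4.94% higher and 8.52% lower in the cortisol arm. SLC2A4, named on the array by its older symbol glut4 and matched to the list after its values were seen, had the largest difference in controls. It measured 2.92, 3.36 and 4.13 (lowest, median and highest) in controls at 130 d and 4.17, 4.64 and 5.02 at 140 d, without overlap. It rose by 1.23 ± 0.19 in controls (SE, adjusted p = 0.000178, limma) and by 1.09 ± 0.19 with cortisol (SE, adjusted p = 0.000769, limma), and its other probe by 1.16 and 1.25. It kept both calls with no scaling (0.76 and 0.76) and in every other fit run, between 0.95 and 1.37.

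Among regulators, PPARA, a nuclear receptor that switches on genes of fatty acid use, rose in controls by 0.40 ± 0.13 (SE, adjusted p = 0.0346, limma) and differed by 0.37 ± 0.14 with cortisol (adjusted p = 0.07, limma). The PPARA call in controls was lost in 6 of 14 fits that left out 1 fetus (fetuses 1, 3, 4 and 5 at 130 d, 1 and 3 at 140 d, values 0.34 to 0.38), with normexp (0.45), with slide as a block (0.39, adjusted p = 0.0513) and with no scaling (-0.07). CEBPB, a transcription factor of early fat cell formation and of inflammation, rose in the cortisol arm by 1.09 ± 0.31 (SE, adjusted p = 0.0189, limma) and differed by 0.65 ± 0.30 in controls. Without fetus 2 of the younger controls CEBPB was called there too (0.86, adjusted p = 0.0365). ACLY, which makes acetyl-CoA for fatty acid synthesis, fell in the cortisol arm by 1.06 ± 0.29 (SE, adjusted p = 0.0167, limma) and differed by -0.68 ± 0.28 in controls. The CEBPB call in the cortisol arm was lost with normexp (0.53) and in a fit of those groups alone (adjusted p = 0.0548), and the ACLY call with normexp (-0.81). The list's median was 0.44 in controls and 0.18 in the cortisol arm. None of the list genes described was called for cortisol at either age, the smallest unadjusted p being 0.0155. The same held for all 12778 tested probes.

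**Figure D4:**
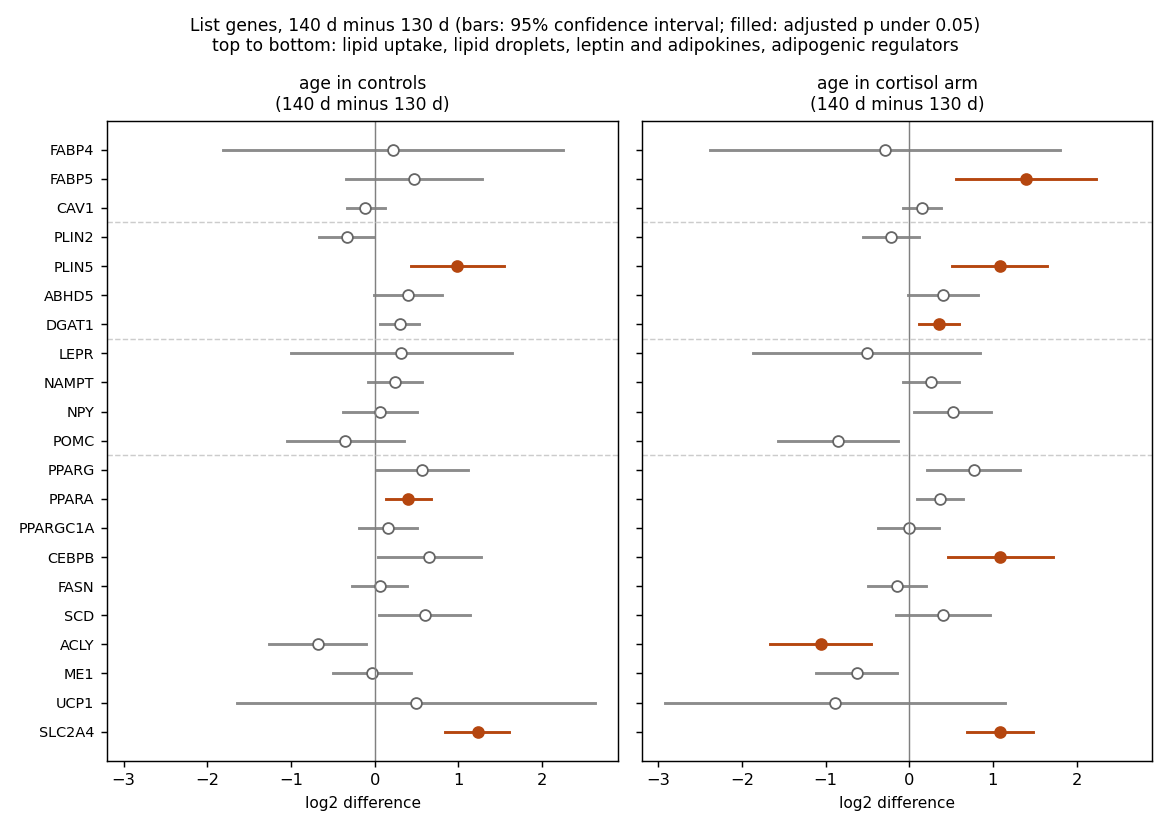
Log2 differences between 140 d and 130 d with 95% confidence intervals for 21 tested list genes (rows, grouped by list) in controls and in the cortisol arm. Filled points have an adjusted p under 0.05 (limma). SLC2A4 and PLIN5 are higher in both panels.

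Of 14 fat cell markers other than the members, 5 had a tested probe and 0 were called in any comparison. Between the ages 19.1% of all tested probes were called in controls and 13.5% in the cortisol arm. PPARG, the master regulator of fat cell formation, differed by 0.57 ± 0.26 in controls and 0.77 ± 0.27 with cortisol (SE, adjusted p = 0.128 and 0.0596, limma), SCD by 0.60 ± 0.27 and 0.40 ± 0.27, and FASN by 0.06 ± 0.16 and -0.15 ± 0.17. FABP4, an abundant protein of fat cells, was well above background on 17 of 27 arrays, and UCP1, the marker of brown fat, on 12 of 27. UCP1 differed by 0.49 ± 1.04 in controls and -0.89 ± 0.98 with cortisol (SE). The summed level of the 5 markers is given in units of the array's 75th percentile. In controls its median was 0.377 (range 0.3 to 0.679) at 130 d and 0.54 (0.319 to 1.22) at 140 d. In the cortisol arm the medians were 0.505 (0.289 to 1.19) and 0.708 (0.51 to 1.06). The median was thus higher at 140 d in both arms, and the ranges overlapped. The sum adds intensities of different probes, so the brightest weighs most. By group median that was PPARG, at -2.04 and -1.48 in controls and -1.99 and -1.12 with cortisol (130 d and 140 d). The higher sum therefore does not show that the 5 markers moved together. PPARG, SCD, FASN and UCP1 also belong to the fourth list, and FABP4 to the first. The part of fat cells in these results was not tested.

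Other cell markers were called in the control age comparison, where 9.77% of all tested probes were called higher and 9.35% lower. Of 4 leukocyte markers 3 were lower at 140 d, by -1.41 ± 0.41 for LYZ, -1.16 ± 0.31 for FCER1G and -1.02 ± 0.24 for ITGB2 (SE), and both red cell markers were lower, HBB at -2.0 ± 0.58 and AHSP at -3.26 ± 0.70 (SE). Their adjusted p values lay between 0.00273 and 0.0179 (limma). Summed red cell markers ranged from 16.8 to 56.4 in younger and from 3.02 to 28.0 in older controls, and summed leukocyte markers from 0.782 to 2.57 and from 0.506 to 0.796. Of 5 fibroblast markers COL3A1 was lower (-0.59 ± 0.21), and MB, the oxygen carrier of heart muscle and the only one of 16 cardiomyocyte markers with a named probe, was higher (0.48 ± 0.15, adjusted p = 0.0282, limma). None of the 4 endothelial markers or the smooth muscle marker was called. In the cortisol arm, where 13.5% of all tested probes were called between the ages, no marker of these lists was called. COL3A1 differed by -0.59 ± 0.21 in both arms (SE, adjusted p = 0.0495 in controls and 0.067 with cortisol, limma). With cortisol AHSP differed by -1.92 ± 0.73 and HBB by -1.35 ± 0.60 (SE, adjusted p = 0.077 and 0.133, limma), LYZ by -0.60 ± 0.42, ITGB2 by -0.08 ± 0.24, FCER1G by 0.09 ± 0.32 and MB by 0.19 ± 0.16 (SE). The test of the difference between the arms called none of these 7 markers, with adjusted p from 0.561 to 1 (limma). In the cortisol arm the summed red cell markers ranged from 19.0 to 43.6 at 130 d and from 1.58 to 33.6 at 140 d, and the summed leukocyte markers from 0.646 to 1.24 and from 0.66 to 2.26. The part of these cell types in the age differences was not tested.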

How the data were processed

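Septum RNA of 27 fetuses was measured on 1-colour Agilent arrays. The deposited scanner files hold Cy3 intensity per spot, background-subtracted as the processed signal, and the submitters' processing notes name Agilent Feature Extraction 10.1.1.1. The authors' deposited value table holds log2 values that equal log2 of the processed signal minus 1 constant per array (column medians 0.09 to 0.12), and it served as an alternative.

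Log2 processed signals were scaled to each array's 75th percentile, spots flagged as outliers were left out, and spots of a probe were averaged. Probes well above background on at least 6 arrays (12778 of 15008) were fitted with group means in limma 3.58.1 (R 4.3.3, lmFit and eBayes), and p-values were adjusted by Benjamini-Hochberg over all of them; 83 tested probes lacked a value on some array. The fit was tested on simulated data with 100 changed probes of each size in the age comparison of controls. It called 35% of log2 changes of 0.5 and 81% of changes of 1. Changes of 0.5 were thus mostly missed in that simulation. It changed 100 of 12695 probes per size, where the data gave 2443 calls over 12778 probes. The adjusted threshold depends on that share, so these percentages are not detection rates for the data. Other tests used Python 3.11.15 and scipy 1.17.1, and correlations were tested by permutation within groups. Depth has no counterpart here, and the number of arrays sets the precision.

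Groups came from the sample titles, and 5 comparisons were made, namely age in each arm, cortisol at each age, and their interaction. Probes were named by the files, by RefSeq accession, gene identifier or synonym (assembly ARS-UI_Ramb_v3.0, names only), or by an older name, with 1564 probes and 963 genes named. The older names, glut4 among them, were matched after values were seen. Named genes were every member probe, every list gene called in any comparison, those of smallest p up to 3 per list, and the 3 genes most like each member, with 1 probe per gene (the brightest on average). A gene of the lipid uptake list is not reported here. Members, lists and tests were chosen with earlier results of these data known. Alternatives covered background correction, scaling, filters, slide and replicate blocks, outlier spots, the groups fitted and each array left out.

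The labels name no pairing of the fetuses, and the main fit used none. Correlations of same-numbered deviations ran from -0.17 to 0.36. They were not set against differently numbered fetuses, so they cannot decide whether replicate numbers pair fetuses. P-values over fetuses of 1 group treat the twins among the older controls as separate.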

Additional observations from a re-analysis of the deposited data

Results flagged for a closer look

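In 6 of the 32 sets of 1 probe in 1 group, 1 fetus stood apart by Dixon's test, which chance gives in about 1 of 20 sets. The sets are not independent, since probes of 1 gene were read on the same fetuses and some share bases. An excess over chance therefore cannot be read from this count. Fetus 2 of the 130 d controls was high on both LPL mRNA probes, at 2.13 on A_70_P029921 (the next fetus at 1.22) and 2.30 on A_70_P029922 (next 1.53). Fetus 3 of the 140 d cortisol group was high on LPL A_70_P029921, at 2.75 (next 2.11). On LEP A_70_P017126 fetus 2 of the 130 d cortisol group was high at -2.78 (next -3.14). On PLIN1, fetus 6 of the 130 d cortisol group was low on A_70_P014631 at -2.40 (next -1.80), and fetus 1 of the 140 d controls was high on A_70_P014632 at -0.48 (next -0.85). LPL kept its calls without any of these fetuses.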

How the results depend on the processing

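The LPL age calls held under every alternative run other than no scaling, each fetus left out included. With no scaling 5 of the 6 were lost and A_70_P029922 kept its call in the cortisol arm. Both SLC2A4 calls held under all alternatives run. With normexp, which shifted the median probe by 0.15 in controls and 0.20 for cortisol at 130 d, 536 and 339 probes were called for age in controls and the cortisol arm, against 2443 and 1720; with no scaling 7260 and 4827. The causes were not tested.

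For age in controls, normexp gave PLIN1 0.41 (A_70_P014631) and 0.43 (A_70_P014632), LEP A_70_P017126 0.53 and A_70_P017127 0.16. No scaling gave PLIN1 -0.03 and 0.02, LPL 0.22, 0.41 and 0.31, LEP 0.05, -0.55 and -0.34, PPARA -0.07, NAMPT -0.23, DGAT1 -0.17 and LEPR -0.14. The mean of its probes gave LEP 0.18. LEP A_70_P017127 was 0.02 with quantile normalization, 0.00 with the median shift, 0.20 with slide as a fixed block, 0.03 with the replicate block and 0.01 in the authors' values.

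For age in the cortisol arm, normexp gave PLIN1 0.30 and 0.34, and LEP -0.11 and -0.05 on the sister probes. No scaling gave PLIN1 0.10 and 0.16, LPL 0.47 and 0.48 (A_70_P016916 and A_70_P029921), LEP -0.29, -0.25 and -0.04, NAMPT -0.06 and CAV1 -0.17. PLIN1 A_70_P014631 lost its call with all probes tested (0.42), with only these groups fitted (0.42) and with the replicate block (0.43). LEP A_70_P026616 was called with quantile normalization (0.42).

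For cortisol at 130 d, normexp gave PLIN1 A_70_P014631 0.05, LEP A_70_P026616 0.34 and LPL A_70_P029921 -0.11, which was -0.01 with the median shift and -0.00 in the authors' values. At 140 d, LEP A_70_P026616 was 0.11 with normexp, 0.05 with the slide block and 0.00 with the replicate block, and LPL A_70_P029922 0.00 with quantile normalization. For the change of the cortisol difference with age, PLIN1 A_70_P014631 was 0.03 with the slide block, and A_70_P014632 0.02 (quantile), 0.01 (median shift), 0.03 (slide block) and 0.01 (authors' values). Normexp gave LEP -0.21 (A_70_P017127) and -0.23 (A_70_P026616) and LPL A_70_P029921 0.02. The replicate block called 1 probe of the array there. Among member probes it ended the PLIN1 call given above and no other.

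With 1 fetus left out, counts ranged from 1649 to 2823 for age in controls, 1287 to 2419 in the cortisol arm and 0 to 2 for the interaction (1 without control 130 d fetus 5, 2 without control 140 d fetus 6). For age, PLIN1 A_70_P014631 ranged from 0.35 to 0.52 in controls and 0.30 to 0.49 in the cortisol arm, where LEP A_70_P017126 ranged from -0.01 to 0.11. In controls POMC ranged from -0.53 to 0.08, LEPR from -0.19 to 0.63. For cortisol at 130 d, PLIN1 A_70_P014631 ranged from -0.19 to 0.02, LEP A_70_P017127 from -0.02 to 0.14, LPL A_70_P029921 from -0.07 to 0.18 and A_70_P029922 from -0.19 to 0.05. At 140 d, LPL ranged from -0.19 to 0.03, -0.19 to 0.02 and -0.12 to 0.07, and LEP A_70_P026616 from -0.11 to 0.06. For the interaction, PLIN1 ranged from -0.14 to 0.07 and -0.08 to 0.09, and LPL from -0.00 to 0.21, -0.25 to 0.02 and -0.07 to 0.19. LEP levels lie near the dim end of the array, which limits what its probes can resolve.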
